A study of Mus musculus with 156 samples.

Results

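Firre overexpression at 12 h is the comparison of mouse embryonic stem cells (mESCs) with a transgene that doxycycline switches on to make the long noncoding RNA Firre, on top of their own Firre gene, 720 min after doxycycline, with control cells treated in the same way. Its members are 12 libraries of 156 in the series, chosen by their labels: 3 of the transgene line at 720 min, 3 of the transgene line at 0 min, 3 of the control at 720 min and 3 of the control at 0 min. The transgene line is labelled as carrying the Firre inducible transgene in the WT background, and the control is labelled WT. Doxycycline was given at 1 ng/µL to both lines, so it was shared by the transgene and control cells at 720 min, and the 0 min libraries of both lines are labelled with 0 minutes of it. All cells grew on gelatin in serum with LIF and with small-molecule inhibitors of GSK3 (CHIR99021) and MEK (PD0325901). The study also holds a Firre knockout (KO) background with and without the transgene, later times of the same course, and a short course of 12 times up to 330 min. Whether each line was a single clone, which promoter drove the transgene and what a replicate was are not given in the sources used here. The p-values therefore measure a spread between libraries that may be technical. For the 720 min response this spread was estimated over all 60 libraries of the long course, not over these 12 alone. Those 60 include the KO background and the later times. The response below is the change of the transgene line between 0 and 720 min less the change of the control over the same time, as log2 fold change ± standard error (SE) from edgeR's quasi-likelihood test with Benjamini-Hochberg (BH) adjustment, and a gene was called when its adjusted p was below 0.05.

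Firre is transcribed from the X chromosome as a family of spliced isoforms that stay in the nucleus. Its exons hold copies of a repeated element, which is known to bind the nuclear matrix protein HNRNPU, and its locus is bound by CTCF and takes part in the folding of the inactive X chromosome. Firre RNA has been reported to gather near genes on other chromosomes, and mouse ES cells express it from their own gene. The repeated stretch is shown because it is the part of the RNA that defines Firre and that makes reads of its copies hard to place. Of 10 annotated isoforms in GENCODE M21, which are 490 to 5555 bases long, 4 hold an exact repeat of 20 bases or more. The longest one, 123 bases, is in the isoform Firre-206, and the capitals mark a core of 61 bases that occurs 8 times in that isoform and at least once in 5 of the 10 isoforms.
Firre-206 repeat, chromosome X: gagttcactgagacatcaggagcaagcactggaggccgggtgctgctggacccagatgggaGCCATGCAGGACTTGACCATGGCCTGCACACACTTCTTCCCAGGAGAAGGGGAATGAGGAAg

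The 12 libraries held 21554054 to 42017297 counts and 21213 to 22896 detected genes each, and the share of counts in mitochondrially encoded genes was 3.42 to 4.29%. Genes of the naive pluripotency list, 17 markers of mESCs, were all at or above 1 TPM in at least 1 library of every group, and their summed level was 1185 to 1486 TPM in the 12 libraries. The counts come from a library kit that does not mark strand, and 40 of the 102 called genes overlap another annotated gene, so reads of such genes cannot be told apart by strand.

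Firre itself (ENSMUSG00000085396.7, chromosome X, 50555744 to 50635321, minus strand, mm10) was highest in the 3 libraries of the transgene line at 720 min, called the induced libraries from here on. Per transcript length it had 121, 109 and 110.1 TPM in the transgene line at 720 min, against 45.8, 45.8 and 46.8 TPM in that line at 0 min, 26.6, 31.0 and 31.3 TPM in the control at 720 min and 24.7, 24.3 and 23.6 TPM in the control at 0 min. The 3 induced libraries lay above all 9 others, and the transgene line at 0 min lay above both control groups. In library-scaled counts (CPM) Firre averaged 132 ± 3.76 CPM in the transgene line at 720 min, 73.4 ± 0.754 CPM there at 0 min, 64.9 ± 3.95 CPM in the control at 720 min and 59.2 ± 0.480 CPM in the control at 0 min (SD, n = 3 each). Its response in counts was 0.72 ± 0.06 (adjusted p = 2.78e-15), and on the log2(TPM + 0.5) scale with limma it was 1.00. The level in the transgene line before doxycycline exceeded that of the control at 0 min by 0.31 ± 0.04 (adjusted p = 6.68e-08) on the log2 scale. The control had 0.13 ± 0.04 (adjusted p = 0.0787) for its change from 0 to 720 min, which was not called. The gap between the lines at 0 min was wider in TPM than in CPM, and its cause was not tested.

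**Figure D1:**
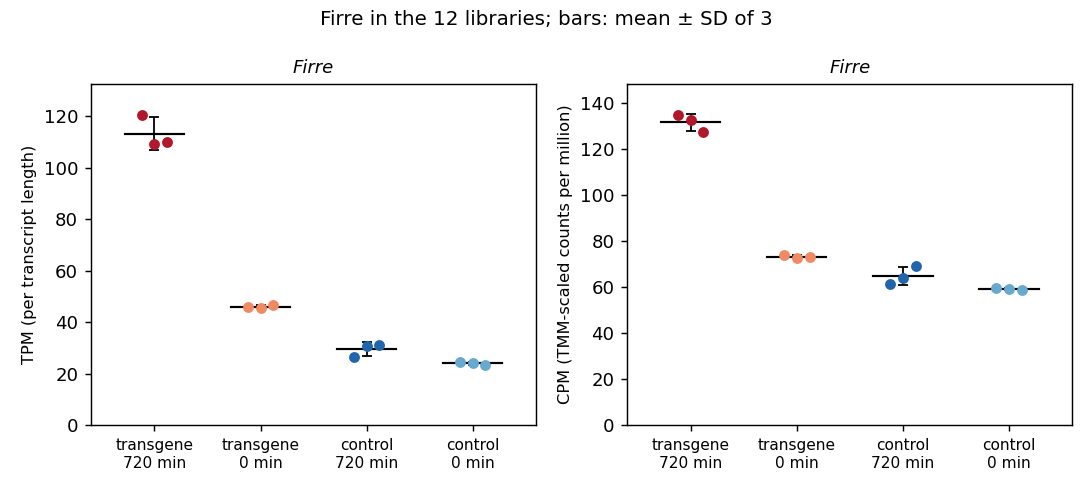
Firre level in each of the 12 libraries, in TPM (left panel) and in CPM (right panel); points are libraries, bars the mean ± SD of 3. The 3 induced libraries stand at 109 to 121 TPM, above the 9 others in both units.

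Beside Firre, 101 genes were called: 58 rose and 43 fell, out of 17565 genes tested. With Firre this is 102 genes, 0.581% of those tested, 0.336% higher and 0.245% lower. The risers changed more than the fallers did: their median response was 0.53, against -0.24 for the fallers, and 15 risers but 1 faller reached a size of 1 on the log2 scale. The fallers were more abundant, with a median of 139 CPM against 17.3 CPM for the risers and 10.5 CPM for all genes tested. Of the called genes with Firre, 98 are protein-coding. The number of fallers depended on the setting and on single libraries. With DESeq2 59 genes were higher and 84 were lower, with the compared libraries alone 52 were higher and 26 lower, and without a filter on low counts 127 were higher and 89 lower. The fallers numbered 24 without control 720 min replicate 2 and 25 without transgene 0 min replicate 2. They numbered 82 without control 720 min replicate 3, 74 without transgene 0 min replicate 1, and 67 without either control 0 min replicate 2 or transgene 720 min replicate 2. The risers numbered 48 to 60 over the 12 fits that left out 1 library. Leaving out replicate 1, 2 or 3 from every group gave 43, 38 and 43 called genes, of which 6, 5 and 14 fell, and limma on log2(TPM + 0.5) called 44, of which 18 fell. A set of 53 genes, 36 higher and 17 lower, was called in each of the 12 fits that left out 1 of the 12 libraries. Of these, 26 genes, 23 higher and 3 lower, were also called in each fit without a replicate number, where groups are smaller. Of those 26, 18 genes, 16 higher and 2 lower, were also called under every other setting that tested them.

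The largest changes were in genes that uninduced mESCs expressed at low levels. Rapgef4 encodes EPAC2, a cAMP-activated exchange factor for the small GTPase RAP. It had 5.09, 7.27 and 6.35 CPM in the transgene line at 720 min, against 0.392, 0.266 and 0.184 CPM in that line at 0 min, 0.105, 0.402 and 0.0840 CPM in the control at 720 min and 0.231, 0.339 and 0.184 CPM in the control at 0 min. The 3 induced libraries stood far above the 9 others, and the response was 4.91 ± 0.53 (adjusted p = 6.15e-11). Antisense transcripts are annotated within Rapgef4, so its counts may include theirs. Duox1 encodes dual oxidase 1, a membrane enzyme that makes hydrogen peroxide. It had 6.79, 6.65 and 7.13 CPM in the transgene line at 720 min, against 0.250, 0.372 and 0.394 CPM in that line at 0 min, 0.395, 0.256 and 0.588 CPM in the control at 720 min and 0.462, 0.367 and 0.369 CPM in the control at 0 min. The groups other than the induced one overlapped each other at low levels, and the response was 4.26 ± 0.43 (adjusted p = 4.50e-12). Duoxa1, the gene of its maturation factor, had a value of 1.44 ± 3.85 and was not called.

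Adgrg1 encodes GPR56, an adhesion G protein-coupled receptor. It had 9.94, 9.68 and 10.5 CPM in the transgene line at 720 min, against 0.962, 1.49 and 1.39 CPM in that line at 0 min, 1.45, 1.35 and 1.81 CPM in the control at 720 min and 1.49, 1.78 and 1.47 CPM in the control at 0 min. All 3 induced libraries were higher than the other 9, with a response of 2.99 ± 0.23 (adjusted p = 3.74e-17). On the TPM scale, where single libraries of the uninduced groups reached 2.41 TPM, limma gave Adgrg1 a response of 1.27 (adjusted p = 0.313), so its call does not hold there. Shf encodes an SH2-domain adaptor of receptor tyrosine kinase signalling. It had 35.6, 34.6 and 34.5 CPM in the transgene line at 720 min, against 9.70, 8.79 and 8.14 CPM in that line at 0 min, 8.41, 7.67 and 8.66 CPM in the control at 720 min and 7.99, 9.37 and 10.2 CPM in the control at 0 min. The induced libraries did not overlap the others, and Shf had the smallest adjusted p of all genes, at 2.15 ± 0.12 (adjusted p = 1.53e-22).

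Apod encodes apolipoprotein D, a lipocalin that carries small lipids and is used as a glial marker. It had 17.3, 19.3 and 14.9 CPM in the transgene line at 720 min, against 3.42, 3.03 and 2.89 CPM in that line at 0 min, 2.53, 3.11 and 2.94 CPM in the control at 720 min and 2.81, 3.10 and 3.63 CPM in the control at 0 min. The induced libraries again lay above the 9 others, at 2.67 ± 0.17 (adjusted p = 9.09e-22). Cdh3 encodes P-cadherin, a calcium-dependent cell adhesion molecule. Its range was 28.3 to 30.7 CPM in the transgene line at 720 min, against 12.2 to 14.7 CPM there at 0 min, 11.6 to 13.7 CPM in the control at 720 min and 12.2 to 13.5 CPM in the control at 0 min, and its response was 1.04 ± 0.09 (adjusted p = 6.04e-15). Nceh1, a cholesterol ester hydrolase, ranged over 40.1 to 43.2 CPM in the transgene line at 720 min, against 18.8 to 21.1 CPM there at 0 min, 21.3 to 23.1 CPM in the control at 720 min and 21.0 to 22.9 CPM in the control at 0 min. The induced libraries lay above the other 9 for both genes, with a response of 1.06 ± 0.08 (adjusted p = 1.15e-18) for Nceh1. Ssh3, a cofilin phosphatase of the slingshot family, had a response of 1.31 ± 0.27 (adjusted p = 0.00265), and Apol6, an apolipoprotein L family member, had 0.91 ± 0.17 (adjusted p = 7.51e-04).

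**Figure D2:**
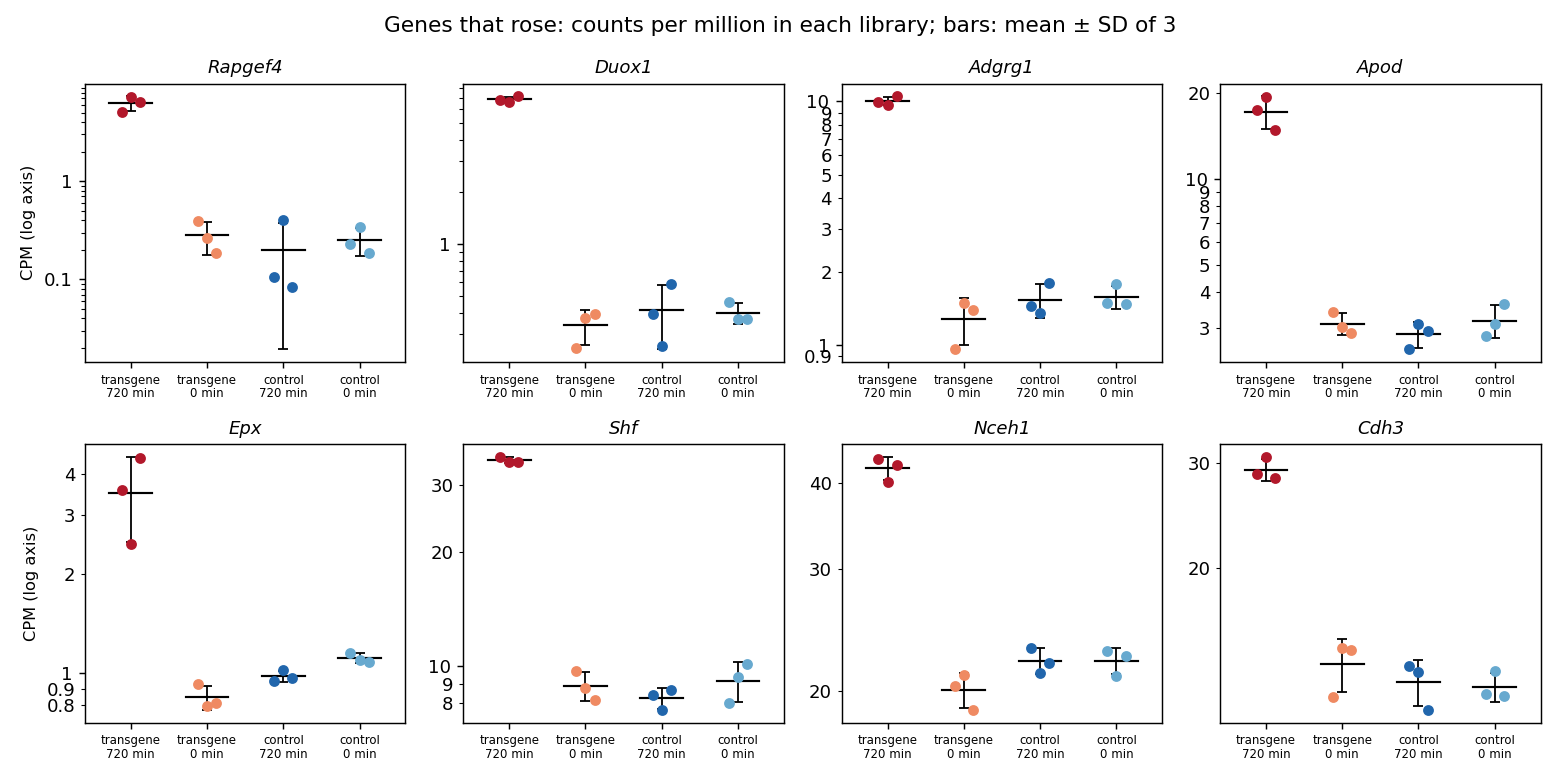
CPM (log axis, each panel with its own range) of 8 genes that rose, in each of the 12 libraries; points are libraries and bars the mean ± SD of 3. In every panel the 3 libraries of the transgene line at 720 min lie above the 9 others.

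The windows around the starts of 4 of these genes are printed because they moved together: Duox1 and Shf are neighbours, and Apod and Rapgef4 are further large risers with a single RefSeq window. Each window runs from 250 bases before to 50 bases after the RefSeq start (GRCm38.p6), 5′ to 3′ on the strand of the gene, and capitals mark any of 5 motifs searched on both strands: the TATA box TATAAA, the CAAT box CCAAT, the GC box GGGCGG, the E-box CACGTG and the AP-1 site TGACTCA.
Shf, chr2:122369098-122369397, minus strand: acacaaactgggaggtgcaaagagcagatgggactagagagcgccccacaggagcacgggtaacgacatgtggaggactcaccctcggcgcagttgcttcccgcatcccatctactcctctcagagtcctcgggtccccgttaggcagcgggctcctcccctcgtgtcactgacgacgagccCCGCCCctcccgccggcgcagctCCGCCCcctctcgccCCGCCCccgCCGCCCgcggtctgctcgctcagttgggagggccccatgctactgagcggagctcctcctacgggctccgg
Duox1, chr2:122315422-122315721, plus strand: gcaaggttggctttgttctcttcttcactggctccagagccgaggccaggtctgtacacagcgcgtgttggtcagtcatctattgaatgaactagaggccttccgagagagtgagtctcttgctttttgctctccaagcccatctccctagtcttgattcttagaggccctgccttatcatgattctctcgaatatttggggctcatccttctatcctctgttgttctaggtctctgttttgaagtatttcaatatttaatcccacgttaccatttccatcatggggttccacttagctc
Apod, chr16:31314759-31315058, minus strand: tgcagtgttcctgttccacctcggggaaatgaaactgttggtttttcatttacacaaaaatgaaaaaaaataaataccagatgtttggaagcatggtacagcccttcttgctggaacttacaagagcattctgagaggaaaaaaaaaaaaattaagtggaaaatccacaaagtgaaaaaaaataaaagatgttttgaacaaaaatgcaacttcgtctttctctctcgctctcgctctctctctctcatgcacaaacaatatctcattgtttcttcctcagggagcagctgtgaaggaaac
Rapgef4, chr2:71980965-71981264, plus strand: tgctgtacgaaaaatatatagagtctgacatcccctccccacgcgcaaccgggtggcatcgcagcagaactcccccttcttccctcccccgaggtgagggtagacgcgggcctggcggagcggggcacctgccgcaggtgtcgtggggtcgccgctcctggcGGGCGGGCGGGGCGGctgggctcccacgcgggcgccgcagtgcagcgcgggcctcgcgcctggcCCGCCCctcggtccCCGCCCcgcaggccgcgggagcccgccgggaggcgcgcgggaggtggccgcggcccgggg
The Shf and Rapgef4 windows are CpG-rich, with 27 and 40 CpG dinucleotides, and hold GGGCGG, which reads CCGCCC on the other strand, in part as overlapping copies in Rapgef4. Another RefSeq window of Shf, not printed, has 36 CpG dinucleotides and also holds GGGCGG. The Duox1 and Apod windows hold 6 and 4 CpG dinucleotides and none of the 5 motifs. RefSeq windows matched 49 of the 58 risers and 30 of the 43 fallers. GGGCGG stood in 59.2% of the risers' windows, 83.3% of the fallers' and 60.7% of the windows of all 12474 tested genes with one, and in 35.7% of all 32851 windows in the table. TATAAA stood in 14.3% of the risers' windows, 3.3% of the fallers' and 7.9% of those of all tested genes, and in 13.6% of all windows. CCAAT stood in 32.7, 46.7 and 39.2% of these sets and in 37.4% of all windows. CACGTG stood in 10.2, 16.7 and 9.8%, with 7.2% over all windows, and TGACTCA in 6.1, 3.3 and 3.6%, with 5.2% over all windows. The median number of CpG dinucleotides was 17 in the risers' windows, 28 in the fallers' and 19 over the tested genes. These are descriptions of letters in a window, and fallers were also more abundant genes than risers.

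Called genes lay within 500 kb of another called gene, start to start, in 4 places that hold 11 genes. On chromosome 2, Sord (chromosome 2, 122234749 to 122265340, plus strand), Duox1 (chromosome 2, 122315672 to 122347972, plus strand) and Shf (chromosome 2, 122348892 to 122369162, minus strand) all rose. Duox1 and Shf face each other tail to tail with 920 bases between their annotated ends, and counts without strand cannot place a read that runs past either end. Sord, sorbitol dehydrogenase, had a smaller response of 0.39 ± 0.09 (adjusted p = 0.00810), which was lost without control 0 min replicate 3, control 720 min replicate 2 or transgene 720 min replicate 3 (adjusted p up to 0.0583). Duoxa1, between Sord and Duox1, was not called.

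On chromosome 16, Acap2, Ppp1r2, Apod and Bdh1 rose within 31092412 to 31458901. Ppp1r2, an inhibitor of protein phosphatase 1, lies 20.9 kb from Apod and had 81.5 to 84.9 CPM in the transgene line at 720 min, against 57.0 to 60.9 CPM there at 0 min, 53.6 to 55.1 CPM in the control at 720 min and 52.1 to 53.8 CPM in the control at 0 min. Its induced libraries lay above all others, at 0.47 ± 0.05 (adjusted p = 7.90e-10). Acap2, a GTPase-activating protein for ARF6, had 0.24 ± 0.06 (adjusted p = 0.0150), and Bdh1, the mitochondrial 3-hydroxybutyrate dehydrogenase, had 0.33 ± 0.07 (adjusted p = 0.00334). The Acap2 call was lost without control 0 min replicate 1, control 720 min replicate 1, transgene 0 min replicate 3 or transgene 720 min replicate 1 (adjusted p up to 0.125), and the Bdh1 call without control 720 min replicate 2 (adjusted p = 0.0618).

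On chromosome 1, Pde6d, a prenyl-binding chaperone of small GTPases, had a response of 0.79 ± 0.09 (adjusted p = 3.23e-10). Its neighbour Ptma, the abundant chromatin-associated protein prothymosin alpha, is 12.3 kb away and had 0.16 ± 0.03 (adjusted p = 0.00573). On chromosome 14, Fgf17, a secreted fibroblast growth factor, fell by 0.44 and Dmtn, an actin-bundling protein, fell by 0.21, and 155 bases separate their annotated ends. Of all 102 called genes 10.8% had a called neighbour within that distance, against 6.5% of the other genes tested, and this difference was not tested.

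Among the genes with the smallest adjusted p were abundant ones with smaller fold changes. Umps makes UMP, the last step of pyrimidine nucleotide synthesis. It had 331, 320.3 and 336 CPM in the transgene line at 720 min, against 225, 226 and 221 CPM in that line at 0 min, 199, 199 and 197 CPM in the control at 720 min and 202, 197 and 199 CPM in the control at 0 min. The transgene line was already above the control at 0 min, and the induced libraries rose further, at 0.56 ± 0.04 (adjusted p = 2.26e-20). Impdh1, inosine monophosphate dehydrogenase of guanine nucleotide synthesis, ranged over 78.7 to 79.3 CPM in the transgene line at 720 min, against 38.4 to 39.8 CPM there at 0 min, 35.2 to 38.6 CPM in the control at 720 min and 31.5 to 35.2 CPM in the control at 0 min, with a response of 0.91 ± 0.07 (adjusted p = 1.44e-18). Dpf2, a subunit of BAF chromatin remodelling complexes, ranged over 157 to 163 CPM in the transgene line at 720 min, against 101 to 103 CPM there at 0 min, 106 to 109 CPM in the control at 720 min and 103 to 106 CPM in the control at 0 min, with a response of 0.60 ± 0.04 (adjusted p = 4.67e-18). Its call did not hold with limma on log2(TPM + 0.5). In all 3 genes the induced libraries did not overlap the other 9.

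Single members of lists of other cell types rose, while most of each list was low or did not pass. Over all genes tested 0.336% were called higher. These lists were chosen with earlier results of these data known. Of 15 trophoblast genes tested 1 rose, Ascl2, a basic helix-loop-helix factor of the placenta, at 1.11 ± 0.15 (adjusted p = 9.10e-08). Its range was 8.33 to 9.83 CPM in the transgene line at 720 min, against 4.42 to 5.09 CPM there at 0 min, 3.53 to 4.85 CPM in the control at 720 min and 4.39 to 4.88 CPM in the control at 0 min, without overlap. The summed level of the trophoblast list was 70.0 to 74.3 TPM in the transgene line at 720 min, 65.4 to 67.7 TPM there at 0 min, 71.3 to 79.7 TPM in the control at 720 min and 67.1 to 71.3 TPM in the control at 0 min. Of 9 neuroectoderm and glia genes tested 2 rose, Apod and Gfap. Both had been named as responders by earlier analyses of these data, so this count is not independent evidence. Gfap, the intermediate filament of astrocytes, had 1.34, 0.757 and 0.920 CPM in the transgene line at 720 min, against 0.107, 0.186 and 0.184 CPM there at 0 min, 0.395, 0.475 and 0.210 CPM in the control at 720 min and 0.231, 0.310 and 0.290 CPM in the control at 0 min. The call of Gfap, 2.17 ± 0.49 (adjusted p = 0.0110), was lost without transgene 720 min replicate 1 (adjusted p = 0.0666), and in TPM the induced libraries overlapped the control. In that list Aqp4 was at 0 TPM in all 12 libraries, and its summed level was 100.2 to 113 TPM in the transgene line at 720 min, 86.1 to 89.3 TPM there at 0 min, 99.7 to 105 TPM in the control at 720 min and 89.8 to 95.5 TPM in the control at 0 min.

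Of 4 blood and eosinophil genes tested 1 rose, Epx, the peroxidase of eosinophil granules, where 0.336% of all genes tested were called higher. Epx had also been named as a responder by those earlier analyses, so this count is not independent evidence. Its range was 2.46 to 4.46 CPM in the transgene line at 720 min, against 0.797 to 0.927 CPM there at 0 min, 0.949 to 1.02 CPM in the control at 720 min and 1.08 to 1.16 CPM in the control at 0 min, and its response was 2.19 ± 0.28 (adjusted p = 3.85e-08). The induced libraries lay above all others, while Prg2 and Hbb-bs of the same list were at 0 TPM in all 12 libraries. The summed level of that list was 19.401 to 25.942 TPM in the transgene line at 720 min, 17.616 to 19.099 TPM there at 0 min, 14.6 to 16.4 TPM in the control at 720 min and 14.8 to 15.4 TPM in the control at 0 min. Of 7 fibroblast or feeder genes tested 1 rose, Col5a1, a fibrillar collagen chain, at 0.68 ± 0.10 (adjusted p = 1.90e-06), and in each group 9 of the 14 listed genes were below 1 TPM in every library. The summed level of that list was 272 to 294 TPM in the transgene line at 720 min, 305 to 315 TPM there at 0 min, 275 to 292 TPM in the control at 720 min and 270.1 to 286 TPM in the control at 0 min. Whether other cell types play a part in these values was not tested. In bulk RNA, fewer cells of a type and less RNA per cell cannot be told apart.

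Among 15 tested targets of BMP and activin or Nodal signalling 3 rose and none fell, with a list median of 0.04 against -0.003 over all genes tested. Over all genes tested 0.336% were called higher. This list was chosen with earlier results of these data known, so its count is not independent evidence. Id2, an inhibitor of basic helix-loop-helix factors, had 20.6, 22.5 and 20.4 CPM in the transgene line at 720 min, against 14.0, 14.1 and 14.3 CPM in that line at 0 min, 13.9, 14.0 and 11.7 CPM in the control at 720 min and 12.7, 13.5 and 13.9 CPM in the control at 0 min. The induced libraries lay above the rest, at 0.61 ± 0.10 (adjusted p = 3.51e-05). Lefty1, a secreted Nodal inhibitor that also stood for the mesendoderm list as 1 of 9 tested, had 0.49 ± 0.10 (adjusted p = 0.00272). The summed level of the mesendoderm list was 152 to 177 TPM in the transgene line at 720 min, 166 to 171 TPM there at 0 min, 146 to 148 TPM in the control at 720 min and 138 to 142 TPM in the control at 0 min. Fst, which encodes the activin-binding protein follistatin, had 0.43 ± 0.09 (adjusted p = 0.00410). The other 12 targets did not pass, among them Id1 at 0.12 ± 0.13 (adjusted p = 0.865) and Smad7 at -0.07 ± 0.07 (adjusted p = 0.868). The median of this list was -0.004 without control 720 min replicate 2, and 1, 2 and 3 of its genes rose when replicate 1, 2 or 3 was left out of every group.

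Of 22 imprinted genes tested 2 rose and none fell, with a list median of 0.04 against -0.003 over all genes tested. Over all genes tested 0.336% rose. The imprinted list was chosen with earlier results of these data known, so its count is not independent evidence. Peg3, a paternally expressed zinc finger gene, had 191, 187 and 186 CPM in the transgene line at 720 min, against 153, 149 and 148 CPM in that line at 0 min, 156, 157 and 150.1 CPM in the control at 720 min and 155, 156 and 155 CPM in the control at 0 min. The 3 induced libraries stood above the other 9, and the response was 0.34 ± 0.04 (adjusted p = 9.34e-08). Plagl1, a paternally expressed zinc finger regulator of growth, had 0.30 ± 0.06 (adjusted p = 4.88e-04). Both calls were lost with limma on log2(TPM + 0.5). Mest, also on the list, was not called, at -0.18 ± 0.06 (adjusted p = 0.238). In the KO background it was called lower at 720 min with edgeR, at -0.245 (adjusted p = 0.00930). Of 15 cadherins and adhesion receptors tested 2 rose, Adgrg1 and Cdh3, while Cdh1, the E-cadherin of mESCs, had 0.04 ± 0.04 (adjusted p = 0.826) and Cdh2 had 0.16 ± 0.12 (adjusted p = 0.768). Adgrg1 and Cdh3 had been named as responders by earlier analyses of these data, so this count is not independent evidence.

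The falls were small and included regulators of pluripotency. Of 17 naive pluripotency genes 3 fell and none rose, with a list median of -0.12 against -0.003 over all genes tested. Over all genes tested 0.245% were called lower. In this list 14 of 17 values were below 0, against 8946 of 17565 over all genes tested. The list was chosen with earlier results of these data known, so these counts are not independent evidence. Tbx3, a T-box factor of the naive state, had 155, 167 and 164 CPM in the transgene line at 720 min, against 173, 182 and 185 CPM in that line at 0 min, 188, 186 and 185 CPM in the control at 720 min and 169, 179.9 and 172 CPM in the control at 0 min. The induced libraries were the lowest 3 of the 12, and Tbx3 fell at -0.26 ± 0.05 (adjusted p = 0.00183). Klf5, a Krüppel-like factor, had a range of 123 to 127 CPM in the transgene line at 720 min, against 134 to 144 CPM there at 0 min, 141 to 154 CPM in the control at 720 min and 138 to 151 CPM in the control at 0 min, with a response of -0.19 ± 0.05 (adjusted p = 0.0320). Nr0b1, the orphan nuclear receptor DAX1, had 123 to 132 CPM in the transgene line at 720 min, against 144 to 157 CPM there at 0 min, 147 to 158 CPM in the control at 720 min and 147 to 154 CPM in the control at 0 min, with a response of -0.23 ± 0.06 (adjusted p = 0.0326).

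Both of these calls were lost when single libraries were left out. The Klf5 call was lost in 7 of the 12 fits without 1 library: control 0 min replicates 1 and 3, control 720 min replicates 1 and 2, transgene 0 min replicates 2 and 3, and transgene 720 min replicate 1 (adjusted p up to 0.131). The Nr0b1 call was lost without control 0 min replicate 1, control 720 min replicate 1, transgene 0 min replicate 3 or transgene 720 min replicate 2 (adjusted p up to 0.160). Tbx3 was called in all 12 such fits. The number of naive genes that fell was 1 to 4 over these fits and the list median -0.16 to -0.11. Leaving out replicate 1, 2 or 3 from every group left 0, 1 and 1 naive genes that fell, with medians of -0.11, -0.08 and -0.15, and Tbx3 was not called without replicate 1. Naive genes that did not pass included Tet2 at -0.16 ± 0.04 (adjusted p = 0.0642), Klf4 at -0.15 ± 0.05 (adjusted p = 0.190), Klf2 at -0.38 ± 0.12 (adjusted p = 0.219) and Esrrb at -0.02 ± 0.04 (adjusted p = 0.939).

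Of 14 general pluripotency genes 1 fell, Sox2, a core factor of the pluripotency network, with a list median of -0.08. The share called lower over all genes tested was 0.245%. Sox2 had 238, 257 and 247 CPM in the transgene line at 720 min, against 279, 294 and 300.0 CPM in that line at 0 min, 279, 273 and 265 CPM in the control at 720 min and 273, 284 and 285 CPM in the control at 0 min. Its induced libraries were the lowest 3, with a response of -0.19 ± 0.04 (adjusted p = 0.00727). Pou5f1 and Nanog, the other core factors, had -0.11 ± 0.05 (adjusted p = 0.501) and -0.07 ± 0.04 (adjusted p = 0.705) and were not called. Without replicate 1, 2 or 3 of every group Sox2 was not called, nor with limma on log2(TPM + 0.5) or with the compared libraries alone. The summed TPM of the naive list was 1185 to 1314 in the transgene line at 720 min, against 1374 to 1423 there at 0 min, 1413 to 1486 in the control at 720 min and 1399 to 1444 in the control at 0 min. That of the general pluripotency list was 9045 to 10596 in the transgene line at 720 min, against 10280 to 10473 there at 0 min. In the control it was 10210 to 10572 at 720 min and 10034 to 10117 at 0 min. For that list the induced range overlapped those of the other groups.

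**Figure D3:**
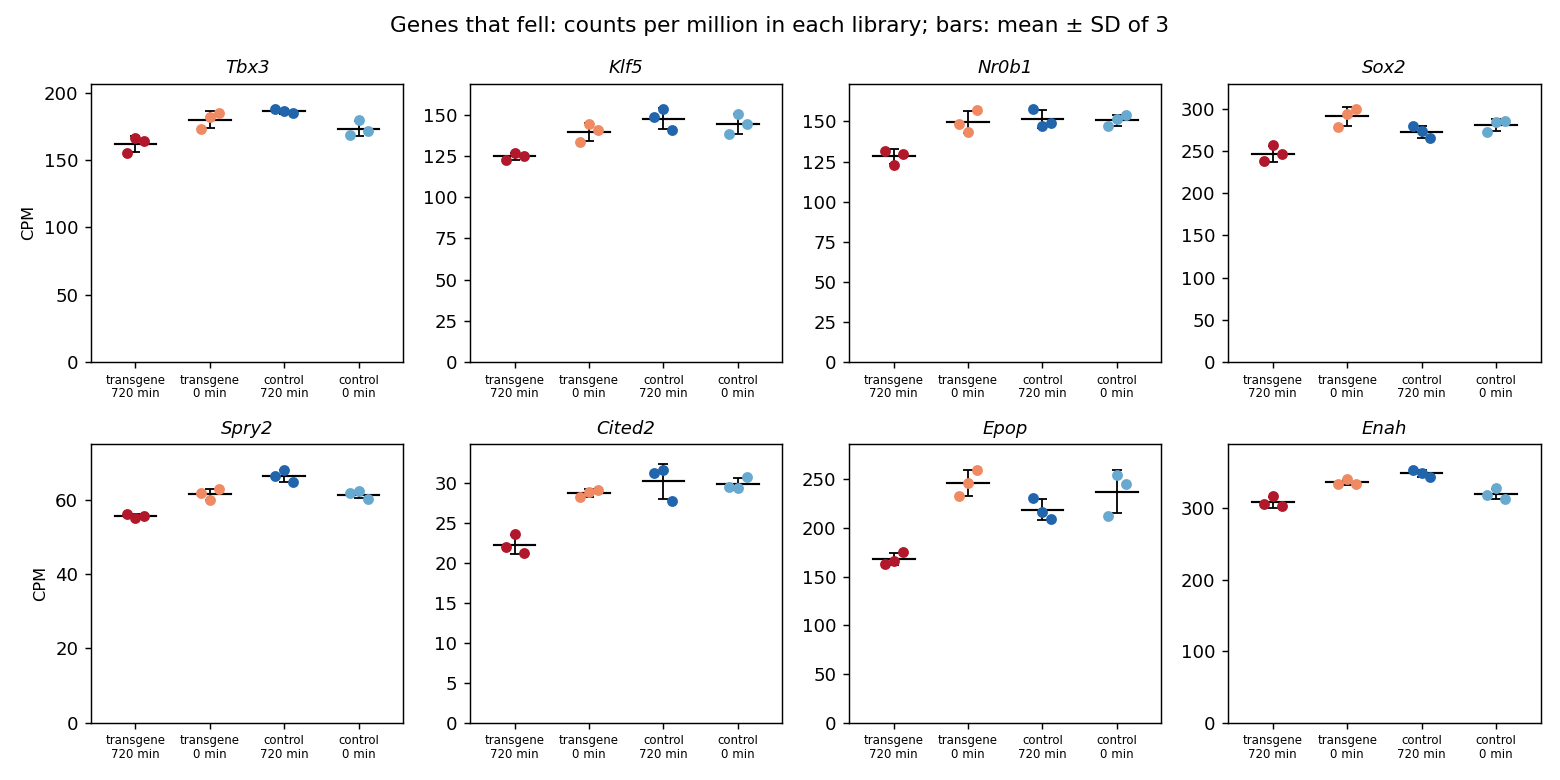
CPM (linear axes from 0) of 8 genes that fell, in each of the 12 libraries; points are libraries and bars the mean ± SD of 3. The shifts are small: for Tbx3 the 3 induced libraries lie at 155 to 167 CPM and the 9 others at or above 169 CPM.

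Other fallers had varied roles. Olfr1459, a gene with an olfactory receptor symbol, had the smallest adjusted p of the fallers, and it ranged over 223 to 227 CPM in the transgene line at 720 min, against 270.4 to 286 CPM there at 0 min, 258 to 277 CPM in the control at 720 min and 264 to 276 CPM in the control at 0 min. The induced libraries lay below the 9 others, and the response was -0.32 ± 0.05 (adjusted p = 7.58e-06). Enah, an actin regulator of the Ena/VASP family, had 302 to 317 CPM in the transgene line at 720 min, against 334 to 340.3 CPM there at 0 min, 343 to 354 CPM in the control at 720 min and 313 to 328 CPM in the control at 0 min. The induced libraries overlapped the control at 0 min, and the response was -0.25 ± 0.04 (adjusted p = 9.48e-06). It came from -0.12 ± 0.03 (adjusted p = 0.00117) in the transgene line and 0.12 ± 0.03 (adjusted p = 0.00222) in the control. Ipmk, an inositol phosphate kinase, fell at -0.26 ± 0.05 (adjusted p = 4.15e-04), Nid1, a basement membrane linker, at -0.21 ± 0.04 (adjusted p = 0.00322), and Aff4, a scaffold of the super elongation complex, at -0.18 ± 0.04 (adjusted p = 0.00322).

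Spry2, a feedback inhibitor of FGF and ERK signalling, was the only one of 14 tested FGF/ERK targets that passed, at -0.26 ± 0.06 (adjusted p = 0.00402). The share called in either direction over all genes tested was 0.581%. It had 55.0 to 56.1 CPM in the transgene line at 720 min, against 59.9 to 62.9 CPM there at 0 min, 64.9 to 68.1 CPM in the control at 720 min and 60.3 to 62.3 CPM in the control at 0 min, and the induced libraries were the lowest. Cited2, a transcriptional co-regulator that binds CBP and p300, had 22.0, 23.6 and 21.3 CPM in the transgene line at 720 min, against 28.2, 29.0 and 29.2 CPM in that line at 0 min, 31.3, 31.7 and 27.8 CPM in the control at 720 min and 29.6, 29.4 and 30.8 CPM in the control at 0 min. Its induced libraries lay below all others, at -0.38 ± 0.08 (adjusted p = 0.00322). Epop, a protein associated with Polycomb repressive complex 2 and elongin, ranged over 163 to 175 CPM in the transgene line at 720 min, against 233 to 260.0 CPM there at 0 min, 209.6 to 230.4 CPM in the control at 720 min and 213 to 254 CPM in the control at 0 min, with a response of -0.44 ± 0.10 (adjusted p = 0.0239). The Epop call was lost without control 0 min replicate 1, control 720 min replicate 1, transgene 0 min replicates 2 and 3, or transgene 720 min replicates 1 and 2, in turn (adjusted p up to 0.115).

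Further falls were seen in Fam185a at -0.42, the RNA-binding protein gene Mex3b at -0.38, Ypel2 at -0.32, the receptor regulator Lrig3 at -0.31, the guidance cue Ntn1 at -0.29, the phosphatase Dusp14 at -0.27 and the box H/ACA ribonucleoprotein assembly factor Naf1 at -0.27. Fam185a was called in all 12 fits that left out 1 library, and the other 6 lost their calls in 5 to 9 of them. Fgf17 and Dmtn lost theirs in 8 and 7. Each of the 12 libraries except control 720 min replicate 3 ended at least 1 of these 8 calls when left out, with an adjusted p of up to 0.189.

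On the TPM scale many calls of small size did not hold. With limma on log2(TPM + 0.5), 22 of the 49 genes named by rule were called and 27 were not, all in the same direction as with edgeR. Beside those already given, the calls not held were Acap2, Bdh1, Col5a1, Gfap, Lefty1, Ptma, Sord and Ssh3 among the risers. Among the fallers they were Aff4, Cited2, Dmtn, Enah, Fam185a, Ipmk, Klf5, Lrig3, Naf1, Nid1, Nr0b1, Ntn1, Spry2 and Ypel2. Aff4 was also not called without a filter on low counts.

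Genes around the Firre locus did not pass in either direction, with 0 of 15 tested and a median of 0.06, and none of the 6 genes reported as contacts of Firre RNA on other chromosomes passed, with a median of -0.04. Over all genes tested 0.581% were called, so lists this small would hold few or no calls at that share. Nothing is read from 0 calls in such lists. None of 18 nuclear matrix and chromatin partners of Firre passed with edgeR, while DESeq2 called 2 of them. The same 0 calls held for the lists primitive endoderm, germline, formative and primed epiblast, 2-cell-like state, heat shock, p53 targets, glycolysis and hypoxia, integrated stress response, cholesterol synthesis, interferon response, immediate early, Wnt/beta-catenin targets, mitochondrial protein quality control, G1/S cell cycle, G2/M cell cycle and mitochondrially encoded genes, whose medians ran from -0.09 to 0.11. With limma on log2(TPM + 0.5) the integrated stress response list had a median of -0.20, with 18 of 19 values below 0, against -0.07 and 16 of 19 with edgeR, and over all genes tested the limma median was -0.03. The 19 lists without an edgeR call held 268 gene entries tested, of which 14 were higher and 27 lower at an unadjusted p below 0.05. DESeq2 called 2 of these entries, both in the list of nuclear matrix and chromatin partners, and limma on log2(TPM + 0.5) called 0. Some entries are the same gene in different lists, such as Sesn2. The share of all genes tested at that unadjusted threshold is not given here, so nothing is read from the 14 and 27. A list of 15 genes that earlier analyses of these data had named as responders held 9 risers and no faller, which is not independent evidence.

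The response is a difference of changes, and each line changed on its own. The transgene line at 720 min differed from the same line at 0 min in 1620 genes (9.22% of those tested), and the control in 849 genes (4.83%). Before doxycycline the transgene line already differed from the control in 2312 genes (13.2%). The change of the transgene line alone was above 0 in 58 of the 58 risers and below 0 in 43 of the 43 fallers. The change in the control was the larger part in 2 risers and 6 fallers. The 3 induced libraries lay above all 9 others in 51 of 58 risers, as did 4.75% of all genes tested, and below them in 28 of 43 fallers, as did 3.96% of all genes tested. Since the same values made the calls, nothing is read from these counts.

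An independent set of 12 libraries comes from the Firre KO background, where the same kind of transgene restores Firre to cells that lack it (a rescue). At 720 min that response called 150 genes, 0.854% of those tested, 88 higher (0.501%) and 62 lower (0.353%). It shares no library with the overexpression response, but both came from the same fit, with the same estimate of spread for each gene. Of the 101 genes other than Firre, 96 had the same sign in the rescue, 68 passed there in the same direction and none passed in the opposite one. The share of all genes tested with the same sign is not given, here or for the short course below. These 68 genes were 67.3% of the 101 and 45.6% of the 149 genes other than Firre called in the rescue. Of the risers 46 passed in the rescue, 79.3% of the 58 and 52.9% of the 87 rescue risers, and of the fallers 22, 51.2% of the 43 and 35.5% of the 62.

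The 2 backgrounds gave these values for leading genes. Shf had 2.15 ± 0.12 in the overexpression and 2.02 ± 0.10 in the rescue, Apod 2.67 ± 0.17 and 2.42 ± 0.17, Umps 0.56 ± 0.04 and 0.59 ± 0.04, and Dpf2 0.60 ± 0.04 and 0.62 ± 0.04. Duox1 had 4.26 ± 0.43 and 2.97 ± 0.39, and Rapgef4 had 4.91 ± 0.53 and 3.05 ± 0.41. Lefty1 had 0.49 ± 0.10 and 0.88 ± 0.09. Firre itself differed: its response was 0.72 ± 0.06 in the overexpression and 4.11 ± 0.39 in the rescue. In the KO background Firre had 1188 to 1939 counts in the transgene line at 720 min, against 26 to 28 counts there at 0 min, 12 to 56 counts in the KO control at 720 min and 11 to 12 counts in the KO control at 0 min.

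The difference between the responses was tested gene by gene. With edgeR, Firre was the only gene called, 0.00569% of those tested, at -3.40 ± 0.38 (adjusted p = 4.11e-09). The knockout cells lack Firre at the start, so a larger log2 response in the rescue was set by the design. At an unadjusted p below 0.05, 463 genes (2.64%) differed, and 14 of the 101 called genes were among them. For Duox1 the difference was 1.28 ± 0.57 (adjusted p = 1.000), and for Rapgef4 it was 1.86 ± 0.66 (adjusted p = 1.000). The median size of the difference over the 101 genes was 0.076. A difference that was not called does not show that the responses were alike. Mppe1, Gm25835, Mex3b and Pea15a were among the 5 genes of opposite sign in the rescue.

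**Figure D4:**
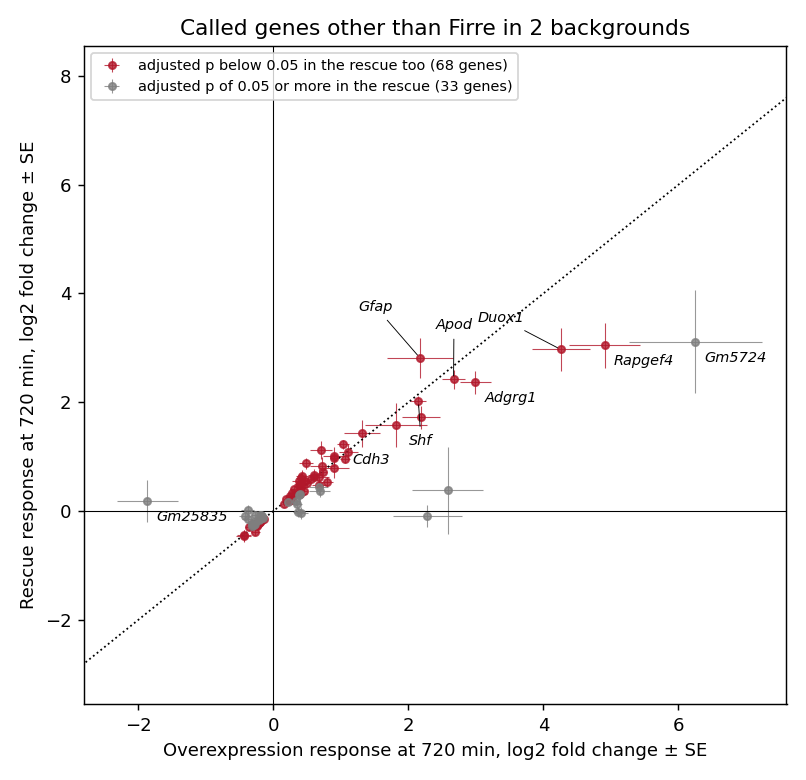
Rescue response against overexpression response at 720 min for the 101 called genes other than Firre, in log2 fold change ± SE; red points also passed in the rescue (68 genes), grey points did not (33 genes), and the dotted line marks equal values. Most points lie near the line, and Gm25835 is among those near 0 in the rescue.

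Earlier times of the same lines were measured in the short course, in 24 other libraries: the mean over 210, 240, 270, 300 and 330 min minus 0 min, with 2 libraries per line and time. That response called 45 genes of 18009 tested (0.25%), 39 higher (0.217%) and 6 lower (0.0333%). Of the 101 genes 92 had the same sign there and 24 passed in the same direction, which is 23.8% of the 101 and 54.5% of the 44 genes other than Firre called in the short course. These were 23 risers, 39.7% of the 58, and 1 faller, 2.3% of the 43. The faller was Sox2, at -0.26 ± 0.05 (adjusted p = 0.00279). In the rescue Sox2 had -0.14 (edgeR adjusted p = 0.141) and did not pass. Tbx3, Klf5 and Nr0b1 passed in the rescue, at -0.24 (adjusted p = 0.00392), -0.21 (adjusted p = 0.0145) and -0.23 (adjusted p = 0.0317).

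Values of single risers in both courses are set side by side. Adgrg1 had 3.58 ± 0.29 at 210 to 330 min and 2.99 ± 0.23 at 720 min, Duox1 3.90 ± 0.48 and 4.26 ± 0.43, and Nceh1 1.08 ± 0.10 and 1.06 ± 0.08. Epx had 0.46 ± 0.43 (adjusted p = 0.855) in the short course, Id2 0.14 ± 0.12 (adjusted p = 0.835), Lefty1 0.01 ± 0.15 (adjusted p = 0.997) and Peg3 0.13 ± 0.09 (adjusted p = 0.759), none of them called. Firre stood at 2.94 ± 0.12 in the short course and 0.72 ± 0.06 at 720 min. The courses were fitted separately, and no test compared them.

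Later times of the long course share the 0 min libraries with the 720 min response, so their values are only set side by side. At 1440, 2880 and 5760 min Rapgef4 had 4.45 ± 0.51, 4.54 ± 0.52 and 5.71 ± 0.53. Shf had 2.00 ± 0.11, 2.03 ± 0.11 and 2.57 ± 0.12, and Adgrg1 had 2.46 ± 0.23, 2.10 ± 0.24 and 3.78 ± 0.23. Apol6 had smaller values at these times, 0.27 ± 0.18, 0.15 ± 0.18 and 0.29 ± 0.16, as did Tbx3, with -0.05 ± 0.05, -0.18 ± 0.05 and -0.15 ± 0.05. Firre itself had 0.28 ± 0.06, 0.38 ± 0.06 and 0.17 ± 0.06.

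**Figure D5:**
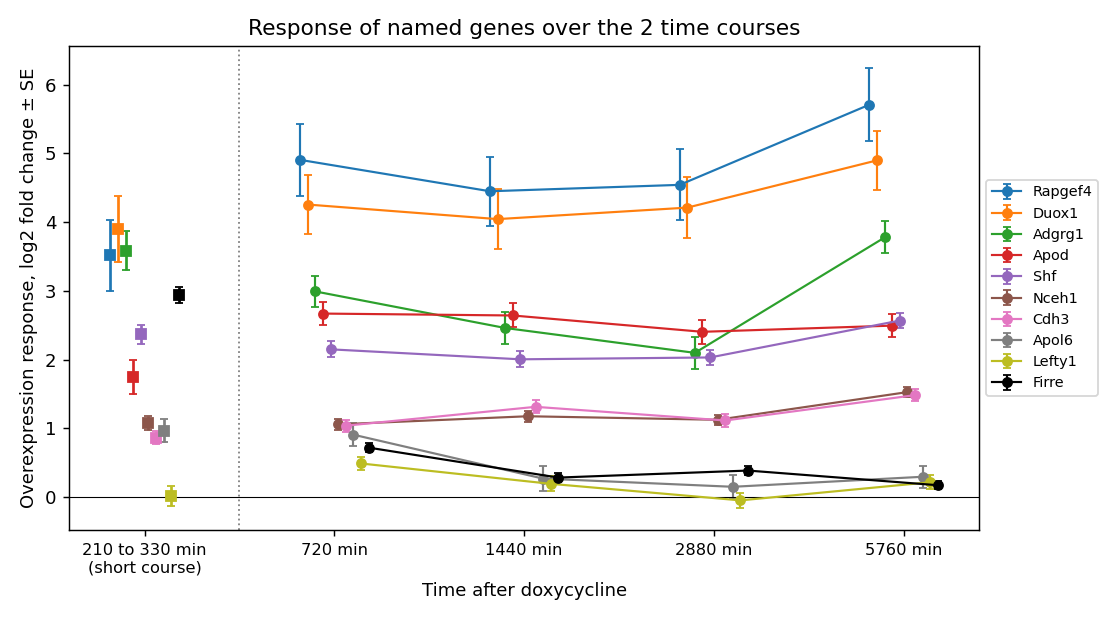
Overexpression response (log2 fold change ± SE) of 9 risers and Firre at 210 to 330 min in the short course (squares) and at 720, 1440, 2880 and 5760 min in the long course (circles joined by lines). Rapgef4 and Duox1 stay above 4 at all long-course times, while Firre declines to 0.17 at 5760 min; points of the long course share the 0 min libraries.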

How the data were processed

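RNA-seq of poly(A) RNA was made with a TruSeq kit that does not mark strand, per the labels' protocols, and the tool and build used on the reads were Salmon 1.5.2 and mm10, per the submitters' processing notes. The authors deposited gene-level expected counts, 76.0% of which were whole numbers, and TPM, so named per the file headers, for 156 libraries and 40914 genes, 7313 of them without a count. The deposited TPM values, which sum to 933467 to 942005 in the 12 libraries, were used only to describe levels and in 1 alternative.

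Expected counts were rounded and fitted with edgeR 4.0.16 (R 4.3.3): filterByExpr (minimum count 10, minimum total 15), TMM, robust quasi-likelihood, 1 coefficient per line and time over all 60 long-course libraries (96 in the short course), BH over all genes tested, threshold 0.05. SE is the absolute log2 fold change divided by the root of the F statistic. CPM came from edgeR. Positions came from GENCODE M21, where 40140 identifiers matched with version, 706 by stable identifier and 68 not at all. The labels do not say what a replicate number marks, so the main fit had no block, and a replicate block was an alternative. Correlations of deviations were -0.023 to 0.069 for same-numbered libraries and -0.061 to 0.05 for differently numbered ones. These values do not decide whether the numbers pair the libraries. Alternatives were DESeq2 1.42.0, limma 3.58.1, RLE scaling, other filters and left-out libraries. The fit was tested on simulated data with 200 changed genes. Only abundant genes were changed there, all genes had the same spread setting, and lines and times did not otherwise differ. The simulation cannot show how well changes in low-count genes are recovered, and nothing is read from it here. Named genes were Firre, the 12 largest responses each way with a mean of at least 1 CPM and no provisional symbol, the 6 smallest adjusted p each way, up to 4 called members of each of 31 lists, and called genes within 500 kb of each other. Of the called genes, 1 is not reported here by name. Members and lists were chosen with earlier results of these data known.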

Additional observations from a re-analysis of the deposited data

Results flagged for a closer look

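Firre was the gene whose log2 response differed in the edgeR test between the WT and KO backgrounds at 720 min. The overexpression response minus the rescue response was -3.40 on the log2 scale (SE 0.38, edgeR adjusted p = 4.11e-09), from 0.72 ± 0.06 in the overexpression and 4.11 ± 0.39 in the rescue. The control of the KO background is labelled as a Firre knockout, and the control of the WT background expressed Firre, at 24.2 ± 0.582 TPM at 0 min (SD, n = 3). The KO transgene line started from 26 to 28 Firre counts at 0 min, so a larger log2 response there was set by the design. That line had 0.588 to 1.07 TPM of Firre at 0 min and 47.3 to 50.8 TPM at 720 min. The WT transgene line had 45.8 to 46.8 TPM at 0 min and 109 to 121 TPM at 720 min. Groups of 3 libraries were not tested for single libraries that stand apart.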

How the results depend on the processing

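Over the alternatives tried, the responses of the 49 named genes kept their direction in each alternative that tested them. In 887 of these values the gene was still called and in 190 it was not. The count of 102 called genes was 143 with DESeq2 (97 of the 102 shared), 112 with RLE scaling, 105 with a mean CPM of at least 1, 122 with the replicate block, which kept all 102, and 78 with the compared libraries alone. It was 216 with no filter on low counts (89 shared), 44 with limma on log2(TPM + 0.5) (34 shared), 38 to 43 without each replicate number and 72 to 141 without each single library. Without a replicate number a group has 2 libraries, and the cause of the other shifts was not tested. With limma on log2(TPM + 0.5), the transgene line's own change counted 671 genes, that of the control 1447, the difference at 0 min 879 and the rescue 57. Without each replicate number these counts were 602 to 1219, 150 to 716, 1090 to 1455 and 41 to 75, and the difference between responses counted 1 to 2 genes. Without a filter that difference counted 46 genes and the short-course response 147. The short-course response counted 104 genes with a spline of time, and 39 to 449 with the spline without replicate 1 or 2. The median response of all genes was -0.003, and -0.008 with RLE scaling or DESeq2. Under limma on log2(TPM + 0.5) it was -0.03, and list medians above 0 turned to -0.009 for trophoblast, -0.02 for adhesion, -0.09 for glycolysis and hypoxia, -0.01 for cholesterol synthesis, -0.004 for interferon response and -0.06 for immediate early, while heat shock turned to 0.01. The immediate early median, 0.004, was also below 0 with DESeq2, RLE scaling, no filter and a mean CPM of at least 1, and that of the 2-cell-like list turned to 0.04 with a mean CPM of at least 1. Genes near 1 CPM or below are limited by depth.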

Other observations

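Several called genes outside the named set are given here after their values were seen. Slc29a3, an equilibrative nucleoside transporter of lysosomes and mitochondria, had 77.2 to 80.6 CPM in the transgene line at 720 min, against 49.3 to 49.8 CPM there at 0 min, 45.7 to 52.3 CPM in the control at 720 min and 49.2 to 52.9 CPM in the control at 0 min, a response of 0.74 ± 0.06 (adjusted p = 5.35e-17). Spp1, the secreted matrix protein osteopontin, was among the most abundant risers at 1364 to 1462 CPM in the transgene line at 720 min, against 906 to 946 CPM there at 0 min, 877 to 952 CPM in the control at 720 min and 828 to 864 CPM in the control at 0 min, with 0.49 ± 0.05 (adjusted p = 1.31e-13). Ldhb, a lactate dehydrogenase subunit, had 0.45 ± 0.06 (adjusted p = 1.40e-08), and Prdx1, a peroxide-reducing enzyme, had 0.25 ± 0.05 (adjusted p = 0.00141). In the short course these last 2 had -0.04 ± 0.08 and -0.05 ± 0.07. Among the fallers was Kdm5b, an H3K4 demethylase, at -0.19 ± 0.04 (adjusted p = 0.00573). The calls of Ldhb, Prdx1 and Kdm5b did not hold with limma on log2(TPM + 0.5).

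The largest fold change of all, 6.25 ± 0.98, belonged to Gm5724, with 0.939, 1.04 and 0.782 CPM in the transgene line at 720 min, against 0.0356, 0.0266 and 0.0263 CPM there at 0 min, 0.0264, 0.0731 and 0 CPM in the control at 720 min and 0.0660, 0.0847 and 0.132 CPM in the control at 0 min. Its fold rests on a few counts in 9 of the 12 libraries, and DESeq2 did not call it. Lrrn3, a leucine-rich repeat neuronal protein, had 1.88, 2.11 and 2.25 CPM in the transgene line at 720 min, against 0.392, 0.266 and 0.420 CPM there at 0 min, 0.211, 0.292 and 0.126 CPM in the control at 720 min and 0.198, 0.198 and 0.263 CPM in the control at 0 min, and was called at 2.58 ± 0.52. Lcp1, an actin-bundling protein, was called higher in counts, at 0.71 ± 0.16, while its TPM in the transgene line were 1.79, 1.90 and 1.88 at 720 min and 3.13, 1.92 and 1.98 at 0 min. The Lcp1 call was lost with limma, and without control 720 min replicate 1 or transgene 0 min replicate 2 (adjusted p up to 0.0958). The single faller of size 1 or more, Gm25835, is a small nucleolar RNA inside Eif4a1 with 0.217 to 0.276 CPM in the transgene line at 720 min, against 0.428 to 0.717 CPM there at 0 min, 0.585 to 0.924 CPM in the control at 720 min and 0.363 to 0.621 CPM in the control at 0 min. Its response of -1.86 ± 0.45 came from -1.27 ± 0.34 in the transgene line and 0.59 ± 0.29 in the control. The call was lost with DESeq2 and with the compared libraries alone. It was also lost without control 0 min replicates 1 or 3, control 720 min replicate 3, transgene 0 min replicates 2 or 3, or transgene 720 min replicate 1 (adjusted p up to 0.0937).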
